A study of Dunaliella salina with 18 samples.

Results

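A set of 146 transcripts of Dunaliella salina, strain CCAP 19/3, a green alga that tolerates high salt, dipped at 4h in the H2L arm of a salinity-shift experiment and stood higher again at 24h. The members were chosen by their H2L group means: the means at 0h and at 24h were both at least 10 and both at least 2 times the mean at 4h, and the mean over all 18 libraries was under 1000. Of 43236 assembled transcripts in the table, 9345 met the conditions on level, and 146 of these also met the condition on the dip. 1 further transcript met the dip but lay above the ceiling. The other 9199 transcripts that met the level conditions without the dip are used below for comparison.

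The 18 libraries were made from total RNA of culture cells of 1 strain, with 3 libraries per group: H2L 0h, H2L 4h, H2L 24h, L2H 0h, L2H 4h and L2H 24h. The sample titles and the condition field give opposite directions for the salinity change of each arm, so the arms keep their title names and neither is given a direction. All values are abundances scaled by the authors for transcript length and sequencing depth, in the units of the deposited table. The labels do not say how cultures were grown, divided or kept, and no culture left unshifted at 4h or 24h was analysed here. Samples at 0h and 24h fall at the same hour of the day and those at 4h do not, in both arms, so the hours since the shift and the hour of the day cannot be told apart.

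Dunaliella lacks a rigid cell wall, and its cells swell or shrink within minutes when the salinity changes. They then recover their volume by making or breaking down glycerol, which serves as their main compatible solute, and by moving ions across the membrane. The abundance of a transcript is set by the balance of its synthesis and its decay, and the table measures only the outcome of both. The identifiers of the table belong to assembled sequences without gene names, and 0 of 43236 were found in the RefSeq gene table at hand, made for a different strain. Members are therefore named by identifier and no function is given to any of them. The first part of an identifier can be shared by several transcripts, which may then share reads.

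Library totals lay between 749880 and 842410 units, and the number of reads behind them is unknown. In every group the titles give libraries 1 and 2 one set of tags and the third library another. Within the 146 members, the log2 ratio of library 1 to library 2 had an SD of 0.248 to 0.315 over the 6 groups, against 0.417 to 0.607 for libraries 1 and 3. The spread behind each test is therefore narrower within libraries 1 and 2 than across all 3, and each p-value reflects only how far these libraries spread, part of which may be technical. The title tags at 24h also differ from those at 0h and 4h, so a tag difference and a change to 24h cannot be told apart.

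In the H2L arm the members had a median group mean of 18.6 at 0h, 6.46 at 4h and 20.3 at 24h. They made up 0.691% to 0.788% of the library total at 0h, 0.209% to 0.278% at 4h and 0.998% to 1.17% at 24h. The 9199 transcripts without the dip had library medians of 22.6 to 23.5 at 0h, 22.1 to 24.8 at 4h and 21.0 to 22.3 at 24h. The 3 libraries at 4h lay below all 6 other H2L libraries in 138 of 146 members (94.5%), a pattern that the rule favours and that held in 6.3% of all 34166 transcripts tested. They lay below all 15 other libraries of the series in 117 members (80.1%), against 3.74% of all transcripts tested. These H2L values chose the members and are given as a description.

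**Figure D1:**
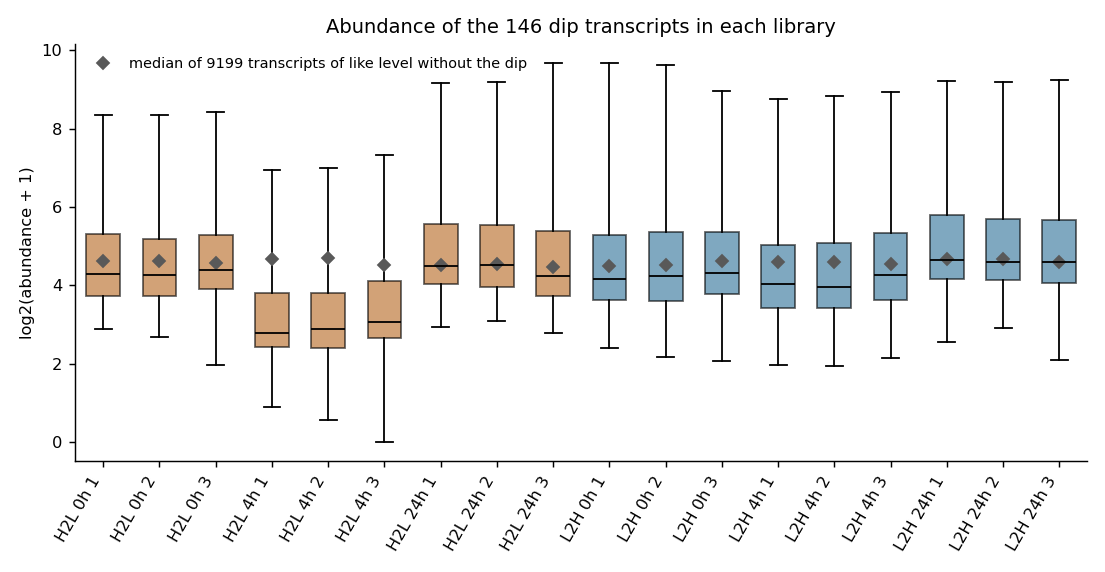
Abundance of the 146 dip transcripts in each of the 18 libraries, as log2(abundance + 1); boxes give the quartiles, the line in each box the median, whiskers the lowest and highest member, and diamonds the median of the 9199 transcripts that met the level conditions without the dip. The medians of the 3 H2L libraries at 4h, at 5.83 to 7.33 units, sit below those of all others, though the boxes overlap in part, while the diamonds stay at about the same height in every library.

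The depth of the dip varied widely among members. The ratio of the lower of the 0h and 24h means to the 4h mean had a median of 2.57 and ranged from 2.002 to 20.6. It lay between 2 and 2.5 in 70 members, between 2.5 and 4 in 56, and was 4 or more in 20. Most members were of modest abundance: the mean over 18 libraries was under 20 in 87 members and at least 100 in 14. The 4h mean was under 5 in 44 members, where few reads may lie behind a value.

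The deepest dip, taken with 1 unit added to each mean, was that of c47931_g3_i1. Its H2L libraries gave 19.2, 7.62 and 14.5 at 0h, then 0.98, 0.49 and 0.53 at 4h, and 26.0, 29.8 and 12.4 at 24h. In the L2H arm the same transcript gave 11.4, 16.2 and 19.7 at 0h, 17.7, 12.3 and 15.3 at 4h, and 28.8, 29.3 and 25.4 at 24h. The H2L libraries at 4h lay far below every other library, and in the L2H arm the libraries at 0h and 4h overlapped.

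The transcript c31050_g1_i1 gave 91.0, 88.9 and 82.4 at H2L 0h, 6.13, 6.01 and 16.4 at 4h, and 117, 123 and 180 at 24h. Its companion c31050_g2_i2, which shares the first part of the identifier, gave 63.0, 69.4 and 47.4 at H2L 0h, 6.05, 6.99 and 15.5 at 4h, and 119, 125 and 135 at 24h. Both were about equally low at 4h, with the third library the highest of the 3. No other transcript in the table carries this first part.

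The transcript c48033_g1_i1 gave 189, 198 and 197 at H2L 0h, 21.7, 22.3 and 48.1 at 4h, and 264, 262 and 330 at 24h. The transcript c65493_g1_i1 was far less abundant, with 11.2, 13.7 and 11.2 at 0h, 0.87, 1.77 and a listed 0 at 4h, and 12.5, 7.55 and 11.3 at 24h. In both, the 4h libraries did not overlap those of the other H2L times.

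The most abundant member, c46759_g1_i1, gave 302, 299 and 332 at H2L 0h, 43.8, 44.3 and 79.2 at 4h, and 571, 583 and 812 at 24h. The next, c51276_g1_i1, gave 248, 251 and 318 at 0h, 37.0, 36.9 and 101 at 4h, and 484, 485 and 713 at 24h. In both, the third library was the highest at each of the 3 times. The transcript c50138_g1_i7 dipped less, with 324, 324 and 342 at 0h, 123, 126 and 133 at 4h, and 334, 319 and 296 at 24h. Its 3 libraries at each time lay close together, and the SD of its mean at 4h of 127 was 4.82.

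At the edge of the rule, c64642_g1_i1 stood just inside with means of 14.5 ± 1.18 at 0h, 5.08 ± 1.32 at 4h and 10.2 ± 1.31 at 24h (SD, n = 3). The transcript c51203_g1_i1 stood just inside with 52.9 ± 4.23, 26.0 ± 2.44 and 52.3 ± 6.70 at the same 3 times. Just outside were c51032_g2_i8, with 102 ± 9.63, 48.6 ± 4.67 and 97.1 ± 3.40, and c49012_g3_i1, with 23.7 ± 4.72, 11.9 ± 0.760 and 35.4 ± 4.17. The ratios were 2.002 and 2.009 inside the edge and 1.997 and 1.995 outside it, while the levels of these 4 transcripts differed widely.

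The third H2L library series had a shallower dip at the return. Taken library by library, both ratios reached 2 in 131 members in the first libraries, in 119 in the second and in 93 in the third. The median log2 change from 4h to 24h was 1.69, 1.61 and 1.23 in libraries 1, 2 and 3, and that from 0h to 4h was -1.41, -1.32 and -1.30. The 4h value was below both other times in 146, 145 and 144 members in the 3 libraries. All but a few members had the dip in each library taken alone, though not always to the 2-fold size. These libraries make up the means that chose the members, so the rule favours these counts and they are a description only.

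At 24h in the H2L arm most members stood near their starting level. The ratio of the 24h mean to the 0h mean had a median of 1.13 and ranged from 0.547 to 5.98, and it lay within 1.5-fold of 1 in 115 of 146 members. It was at least 2 in 8 members and at most 0.5 in 0. The 2 lowest ratios were those of c46534_g4_i1, with 13.9 ± 5.14 at 24h, against 25.4 ± 4.39 at 0h, and of c46005_g1_i2, with 12.6 ± 1.77 at 24h, against 19.3 ± 2.88 at 0h (SD, n = 3).

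**Figure D2:**
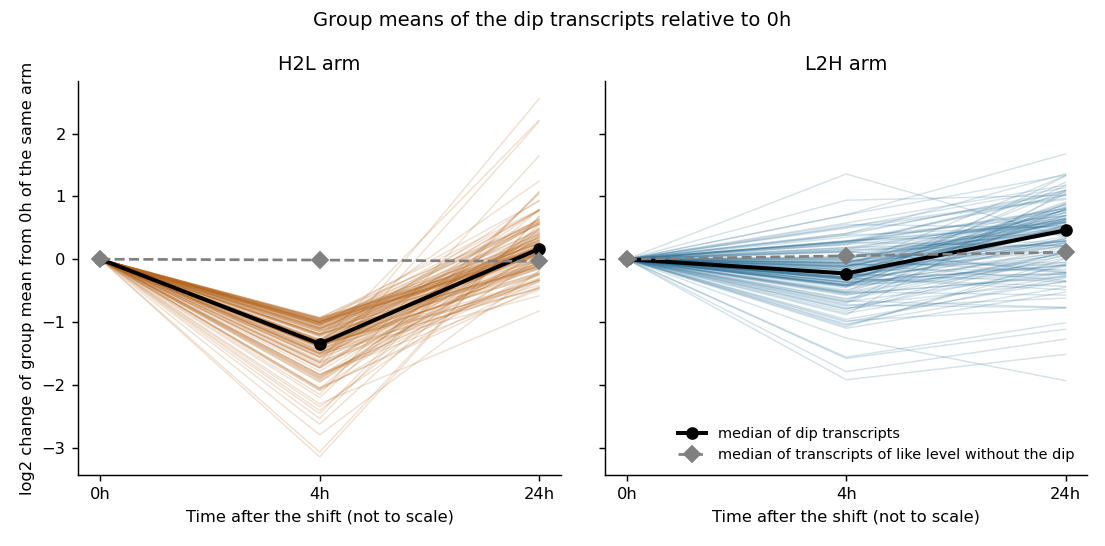
Log2 change of each member's group mean from 0h of its own arm (1 unit added), in the H2L arm on the left and the L2H arm on the right; thin lines are the 146 members, black circles their median and grey diamonds the median of the 9199 transcripts without the dip. In H2L the median is -1.35 at 4h and 0.16 at 24h, by construction of the set; in L2H it is -0.23 at 4h and 0.46 at 24h.

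The 8 members that stood at least 2 times higher at 24h than at 0h in H2L were c31050_g2_i2, c44936_g2_i1, c46759_g1_i1, c48260_g1_i2, c48260_g4_i1, c50329_g1_i5, c50329_g4_i1 and c51276_g1_i1, listed after their values were seen. They make up 5.48% of the members, against 0.826% of the 9199 transcripts without the dip and 8.92% of all tested, as ratios of the plain means. With 1 unit added to each mean the shares were 5.48%, 0.794% and 1.80%. The place of the members against all tested transcripts thus depends on the scale. The ratio uses H2L values that chose the members. The highest ratio was that of c48260_g4_i1, which gave 32.9, 35.4 and 57.1 at 0h, 8.61, 6.99 and 22.5 at 4h, and 162, 157 and 431 at 24h. The transcript c50329_g1_i5 gave 82.9, 88.6 and 71.9 at 0h, 25.6, 30.8 and 38.1 at 4h, and 336, 339 and 463 at 24h. In both, each library at 24h lay above every library at 0h and 4h.

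The L2H arm holds the measurements that the rule did not use, apart from the ceiling on the overall mean. The first question was whether the members also differed between 4h and 0h there. The median log2 change of the members was -0.23, against 0.05 in the 9199 transcripts without the dip and -0.00 over all 34166 tested. The 4h mean was below the 0h mean in 107 of 146 members (73.3%), against 43.5% of the 9199 and 50.5% of all tested. The size was small next to H2L, where the rule demands a 2-fold dip. On the scale with 1 unit added, 10 members were at least 2-fold lower (6.85%) and 1 at least 2-fold higher (0.685%). These shares were 1.77% and 1.40% in the 9199, and 2.18% and 1.63% over all tested.

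Limma, a linear model fitted to all tested transcripts, called 2 of 146 members at an adjusted p under 0.05 (1.37%), both lower at 4h. It called 2.24% of all transcripts tested, 1.17% higher and 1.07% lower, so the share of members called is no result about them. The 4h libraries lay wholly below the 0h libraries in 35 members (24.0%), against 9.77% of all tested, and wholly above them in 4 (2.74%), against 6.87%. Within libraries 1 and 2 alone, 60 members were called lower (41.1%) and 25 higher (17.1%), against 11.3% and 14.3% of all tested. Among the 9199 transcripts without the dip these shares were 21.3% lower and 30.2% higher. With libraries 1 and 2 replaced by their mean, limma called 0 members and 0% of all tested, with 10 members at an unadjusted p under 0.05. The share of all tested at that unadjusted p is not given here, so the 10 are no result about the members. The count over all libraries was 0 without library 1 or library 2 of any of the 6 groups, 23 and 33 when library 3 of L2H 0h or of L2H 4h was left out, 9 for library 3 of H2L 4h, and 4 for library 3 of H2L 0h or H2L 24h.

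The library series differed in this comparison. The median log2 change from 0h to 4h over the members was -0.28 and -0.30 in L2H libraries 1 and 2 and -0.06 in library 3. Values at least 2-fold lower at 4h were seen in 25, 29 and 1 members in the 3 libraries (17.1%, 19.9% and 0.685%). The 9199 transcripts without the dip had the same gap, with 5.42%, 5.95% and 0.207%, so it is not particular to the members. Values at least 2-fold higher at 4h were seen in 7, 6 and 0 members, and in 5.63%, 5.60% and 0.0435% of the 9199. In these transcripts library 3 thus held almost no 2-fold change from 0h to 4h in either direction. Across the 146 members, the change in the mean of libraries 1 and 2 and the change in library 3 had r = -0.07, and both were negative in 65 members. This correlation is across transcripts of the same libraries and describes likeness only. With so little change in library 3, it cannot show whether the library series disagreed.

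The 2 called members were c50329_g1_i5 and c48260_g1_i2, and in both the fall rested on libraries 1 and 2. The transcript c50329_g1_i5 gave 38.7, 42.0 and 196 at L2H 4h, against 430, 438 and 187 at 0h (a log2 change of -2.24, SE 0.45, adjusted p = 0.0384 by limma). The transcript c48260_g1_i2 gave 110, 101 and 303 at L2H 4h, against 609, 656 and 278 at 0h (a log2 change of -1.67, SE 0.40, adjusted p = 0.0429). In each case the third library was slightly higher at 4h than at 0h, so the groups overlapped. With library 1 or 2 of L2H 0h left out the limma change of c50329_g1_i5 was -2.05 or -2.03 (adjusted p = 0.234 or 0.243), and with those of L2H 4h left out it was -1.84 or -1.89 (0.207 or 0.19). The same omissions gave -1.504, -1.45, -1.45 and -1.39 for c48260_g1_i2 (0.234, 0.248, 0.217 and 0.204). Both calls were also lost, with the size kept, without library 1 or 2 of any other group (adjusted p = 0.0511 to 0.0582 by limma), and the range over all alternatives reached 0.947 for both.

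**Figure D3:**
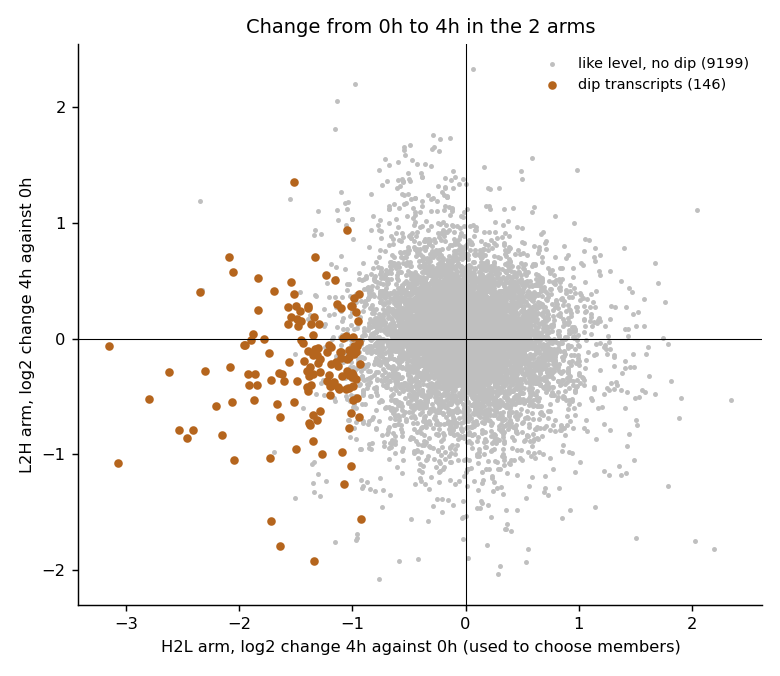
Log2 change from 0h to 4h of the group means (1 unit added) in the H2L arm (horizontal) and the L2H arm (vertical), with the 146 dip transcripts in brown and the 9199 transcripts without the dip in grey. The members lie far to the left because H2L values chose them, and along the vertical axis they scatter from -1.92 to 1.36 around a median of -0.23.

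Across the 146 members the log2 changes at 4h in the arms had r = 0.09 and Spearman's rho = 0.04, given as a description over transcripts that share libraries. The rule keeps only H2L falls of at least 2-fold. The L2H changes differed between library series, with r = -0.07 for libraries 1 and 2 with library 3. A low r here therefore cannot show whether the changes in the arms were related. In group means, 97 members (66.4%) had their lowest L2H value at 4h, against 34.6% of the 9199 transcripts without the dip. An L2H dip of at least 2-fold on both sides was seen in 2 members (1.37%). This share was 0.544% in the 9199 and 5.05% over all tested. The lowest of all 6 group means was H2L 4h in 143 members (97.9%), L2H 4h in 2 (1.37%) and L2H 24h in 1 (0.685%). In the 9199 transcripts without the dip these shares were 22.9%, 20.9% and 7.51%. The rule favours H2L 4h as the lowest group, so these counts are a description.

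The largest L2H dips among members, on the scale with 1 unit added, were those of c31050_g1_i1, c49621_g5_i1 and c50141_g2_i1. The transcript c31050_g1_i1 gave 159, 176 and 101 at L2H 0h, 56.0, 47.7 and 102 at 4h, and 131, 132 and 175 at 24h. The transcript c49621_g5_i1 gave 18.0, 20.9 and 10.7 at 0h, 6.99, 6.33 and 8.99 at 4h, and 15.9, 13.5 and 17.5 at 24h. Its libraries at 4h lay below all others of the L2H arm, whereas the third library of c31050_g1_i1 did not change from 0h to 4h. Neither transcript was called at 4h against 0h (log2 changes of -1.12 and -1.01, adjusted p = 0.0745 and 0.0845 by limma).

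The second question was whether the members differed between 24h and 4h in L2H, and here they did. Limma called 41 of 146 members higher at 24h (28.1%) and 0 lower, against 2.62% of all transcripts tested, 1.88% higher and 0.741% lower. Among the 9199 transcripts without the dip, 2.98% were called higher and 1.38% lower. The median log2 change of the members was 0.59, against 0.05 in the 9199 and 0.03 over all tested. The 24h mean was above the 4h mean in 131 of 146 (89.7%), against 57.7% of the 9199 and 53.3% of all tested. The 41 calls had log2 changes of 0.53 to 2.05 with a median of 0.93, and 18 of them were at least 2-fold.

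The 24h libraries lay wholly above the 4h libraries in 90 members (61.6%), against 11.2% of all tested, and wholly below in 0, against 7.98%. The direction was the same in each library series: the median log2 change was 0.71, 0.68 and 0.39 in libraries 1, 2 and 3, and 130, 134 and 116 members were higher at 24h. All 41 called members were higher at 24h in each of the 3 libraries. Within libraries 1 and 2 alone 95 members were called higher (65.1%) and 2 lower (1.37%), against 9.52% and 5.98% of all tested. Among the 9199 transcripts without the dip these shares were 20.4% higher and 13.7% lower. With libraries 1 and 2 averaged limma called 0 members and 0.00293% of all tested. In that fit 64 members had an unadjusted p under 0.05, a count without the share over all tested beside it. The count of 41 was 13 or 14 when library 1 or 2 of L2H 4h was left out, 17 or 18 when those of L2H 24h were, and 3 with only the 2 groups in the fit.

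**Figure D4:**
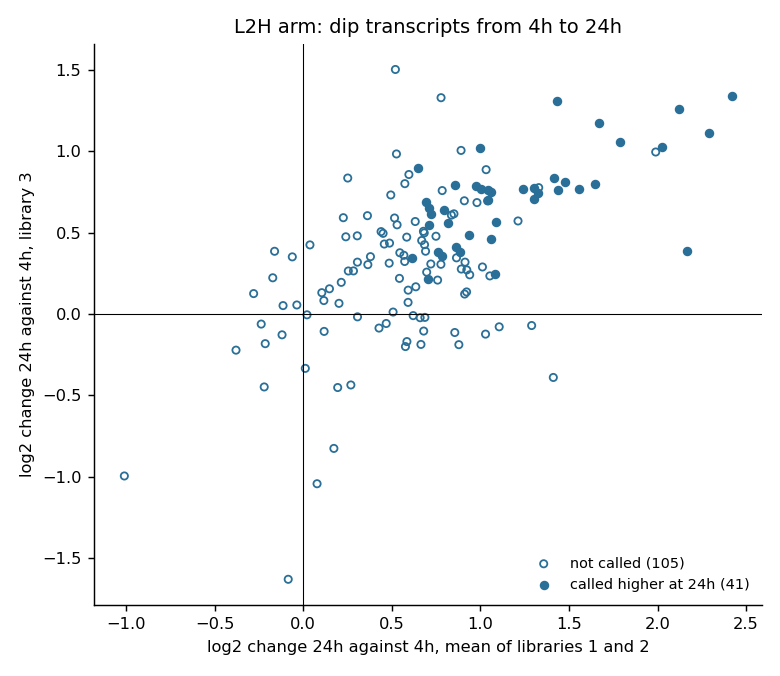
L2H log2 change at 24h against 4h (1 unit added) of the 146 dip transcripts, in the mean of libraries 1 and 2 (horizontal) and in library 3 (vertical), with filled points for the 41 members that limma called higher at 24h. Most points lie in the upper right part, where 110 of 146 members were higher at 24h in both, and the change is larger in libraries 1 and 2 for most filled points.

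The largest rise at 24h was that of c50141_g2_i1, which gave 61.7, 43.7 and 52.4 at L2H 24h, against 10, 8.05 and 20.03 at 4h (a log2 change of 2.05, SE 0.34, adjusted p = 0.00611 by limma). Its L2H 0h libraries had stood between, at 23.9, 22.1 and 26.9, so the L2H groups did not overlap at any of the 3 times. In H2L it gave 65.05, 73.0 and 42.6 at 0h, 28.6, 23.4 and 17.2 at 4h, and 69.3, 66.9 and 25.8 at 24h. The H2L libraries at 4h and 24h thus overlapped. The call held without any single library, and was lost with only the groups compared (adjusted p = 0.077) and with libraries 1 and 2 averaged (0.325 by limma, the highest over its alternatives).

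The transcript c48363_g2_i1 gave 22.1, 18.7 and 25.4 at L2H 24h, against 3.83, 2.94 and 11.2 at 4h (a log2 change of 1.90, SE 0.37, adjusted p = 0.014 by limma). The transcript c45647_g1_i2 gave 15.1, 16.5 and 15.5 at 24h, against 2.90, 2.81 and 5.89 at 4h (a log2 change of 1.84, SE 0.35, adjusted p = 0.0124). In both the third library had the highest value at 4h, yet it too was lower there than at 24h. In H2L c48363_g2_i1 gave 6.34, 8.39 and 16.7 at 0h, 4.02, 3.24 and 7.72 at 4h, and 19.15, 21.8 and 15.5 at 24h. Its H2L libraries at 0h and 4h thus overlapped. Leaving out library 1 or 2 of L2H 4h ended the call of c48363_g2_i1 (adjusted p = 0.087 and 0.0864 by limma) and so did library 1 of L2H 24h (0.0542), with changes of 1.72, 1.58 and 1.89. The call of c45647_g1_i2 ended likewise when library 1 or 2 of L2H 4h (0.0818 and 0.0737 by limma) or library 2 of L2H 24h (0.0551) was left out, with changes of 1.70, 1.69 and 1.80. The adjusted p reached 0.418 and 0.394 over their alternatives.

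The edge member c51203_g1_i1 was also among the 41. It gave 47.6, 46.2 and 60.1 at L2H 24h, against 18.3, 18.5 and 34.7 at 4h (a log2 change of 1.13, SE 0.19, adjusted p = 0.00692 by limma). Without L2H 4h library 1 the change was 0.98 and the adjusted p 0.0571, and the highest over its alternatives was 0.392.

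Against their start, the members were also mostly higher at L2H 24h. Limma called 23 of 146 members between 24h and 0h, 22 higher (15.1%) and 1 lower (0.685%), against 1.39% of all transcripts tested, 0.861% higher and 0.527% lower. Among the 9199 transcripts without the dip, 1.34% were called higher and 0.62% lower. The median log2 change of the members was 0.46, against 0.11 in the 9199 and 0.04 over all tested. At 24h 108 of 146 members were higher (74.0%), against 65.1% of the 9199 and 53.6% of all tested. The 22 rises had log2 changes of 0.57 to 1.77 with a median of 0.81, and 6 were at least 2-fold. This comparison shares the 24h libraries with the one before, and 15 members were called higher at 24h against both earlier times.

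The 24h libraries lay wholly above the 0h libraries in 77 members (52.7%), against 11.1% of all tested, and wholly below in 9 (6.16%), against 8.63%. The median log2 change was 0.54, 0.55 and 0.28 in libraries 1, 2 and 3. Within libraries 1 and 2 alone 86 members were called higher (58.9%) and 20 lower (13.7%), against 13.9% and 6.24% of all tested. Among the 9199 transcripts without the dip these shares were 29.4% higher and 11.9% lower. With libraries 1 and 2 averaged limma called 0 members and 0% of all tested. With only the 2 groups in the fit it called 0 members. At an unadjusted p under 0.05 these limma fits had 54 and 90 members, without the share over all tested beside them. The main count of members called was 1 when library 1 or 2 of L2H 0h was left out, 52 without L2H 0h library 3, 4, 3 and 11 without L2H 24h library 1, 2 or 3, and 15 without H2L 24h library 2. Quantile normalization left 14 calls and upper-quartile scaling 12.

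The largest rise over the start was that of c47822_g1_i1, which gave 68.3, 68.0 and 87.8 at L2H 24h, against 15.1, 16.9 and 36.2 at 0h (a log2 change of 1.77, SE 0.27, adjusted p = 0.00654 by limma). Its L2H 4h libraries gave 39.1, 39.6 and 34.3, above 0h in libraries 1 and 2 and slightly below it in library 3, so these groups overlapped. Leaving out L2H 0h library 1 or 2 ended the call (adjusted p = 0.0616 for both by limma, changes of 1.54 and 1.62) and reached 0.501 over its alternatives.

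The transcript c46931_g1_i1 gave 64.0, 50.5 and 38.5 at L2H 24h, against 16.9, 14.6 and 27.3 at 0h (a log2 change of 1.36, SE 0.29, adjusted p = 0.0311 by limma). Its call ended when library 1 or 2 of L2H 0h (0.161 and 0.178 by limma, changes of 1.28 and 1.18) or of L2H 24h was left out (0.128 and 0.101, changes of 1.18 and 1.35), and reached 0.681 over its alternatives. In H2L this member had 26.3, 26.8 and 37.1 at 0h, 3.92, 4.17 and 10.7 at 4h, and 31.2, 28.1 and 28.3 at 24h.

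The transcript c42743_g1_i1 gave 20.1, 15.3 and 23.2 at L2H 24h, against 7.90, 5.69 and 7.87 at 0h and 4.59, 5.15 and 9.69 at 4h. By limma it was higher at 24h than at 0h by 1.32 on the log2 scale (SE 0.31, adjusted p = 0.0476) and higher than at 4h by 1.499 (SE 0.31, adjusted p = 0.0187). Its libraries at 24h lay above all others of the arm. The call against 0h was lost in 19 of 31 alternatives and the call against 4h in 7, with adjusted p up to 0.599 and 0.403 by limma. Leaving out any 1 L2H 0h or 24h library other than L2H 0h library 3 ended the first (adjusted p = 0.0903 to 0.231 by limma, changes of 1.19 to 1.48). It also ended without library 1 or 2 of H2L 0h, H2L 24h or L2H 4h or without H2L 4h library 1, with the change kept at 1.32 (adjusted p = 0.0542 to 0.0643). Leaving out L2H 4h library 1 or 2 or L2H 24h library 1 or 3 ended the second (adjusted p = 0.061 to 0.117 by limma, changes of 1.32 to 1.47).

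The 1 called fall was that of c53660_g1_i1, which gave 19.7, 12.4 and 11.2 at L2H 24h, against 80.7, 58.5 and 34.8 at 0h (a log2 change of -1.89, SE 0.35, adjusted p = 0.0187 by limma). Its L2H 4h libraries gave 22.2, 11.9 and 36.9. It was the member with L2H 24h as the lowest of its 6 group means. The call ended when library 1 or 2 of L2H 0h (0.133 and 0.0995 by limma, changes of -1.62 and -1.85) or library 2 or 3 of L2H 24h was left out (0.075 and 0.0602, changes of -1.81 and -1.74), and reached 0.501 over its alternatives.

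**Figure D5:**
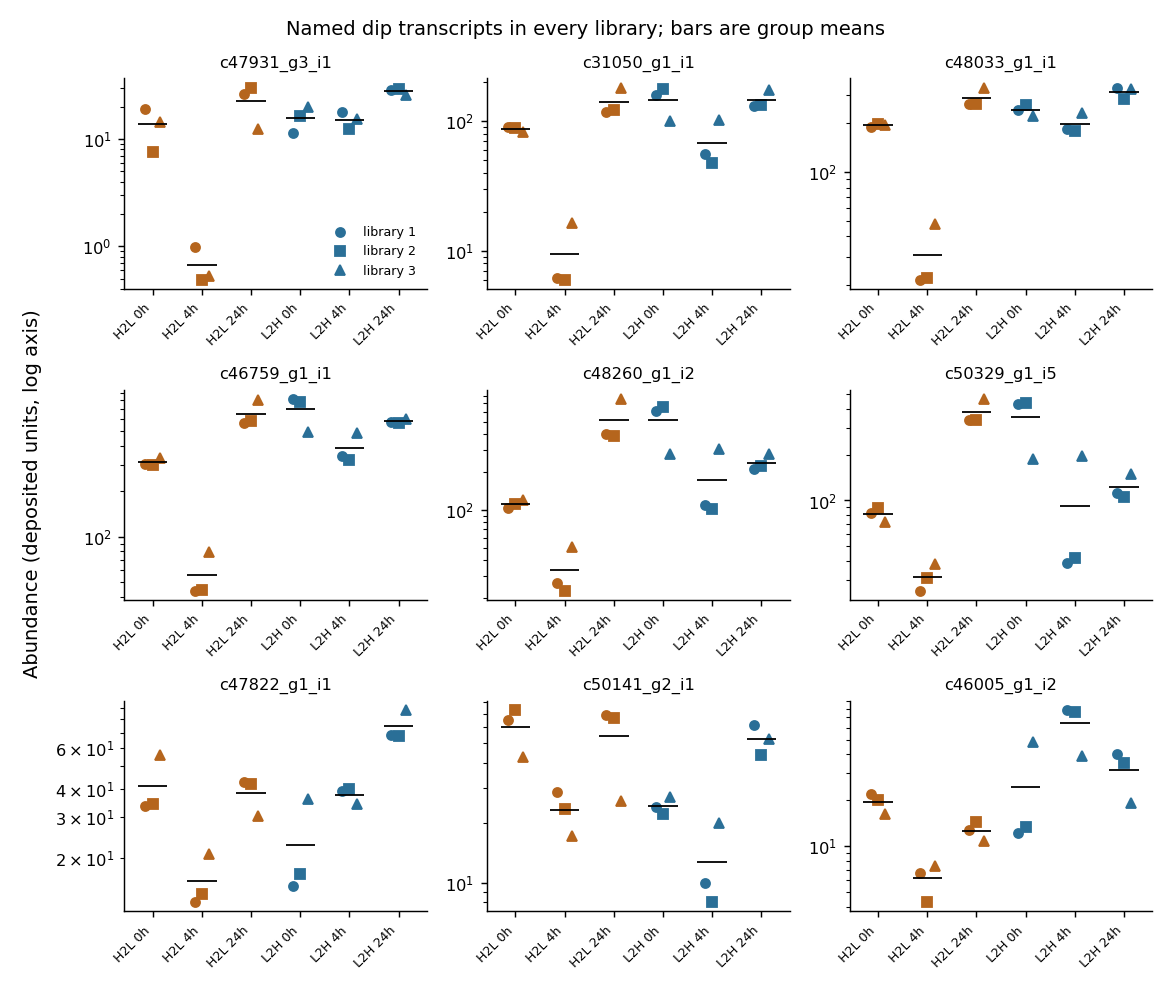
Abundance of 9 named members in every library on a log axis, with H2L groups in brown, L2H groups in blue, a symbol for each library number and a bar for each group mean. All 9 have low H2L values at 4h, while their L2H values differ: c48260_g1_i2 and c50329_g1_i5 fall at 4h in libraries 1 and 2 only, c47822_g1_i1 is highest at 24h, and c46005_g1_i2 is highest at 4h.

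Between the arms, the members started and ended near the same level. The median log2 difference of H2L from L2H group means was 0.05 at 0h, -1.15 at 4h and -0.18 at 24h, where the 9199 transcripts without the dip had 0.06, 0.03 and -0.09. At 4h the H2L mean was below the L2H mean in 144 of 146 members. The highest of the 6 group means was L2H 24h in 84 members (57.5%), against 19.2% of the 9199 transcripts without the dip. These differences use the H2L values that chose the members and carry no test.

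The L2H 0h mean was at least 2 times the H2L 0h mean in 9 members (6.16%), against 1.01% of the 9199 and 9.48% of all tested. These are ratios of the plain means, and with 1 unit added to each mean the shares were 6.16%, 0.859% and 2.23%. The transcript c46759_g1_i1 is among these 9 members, with 817, 786 and 494 at L2H 0h, 345, 323 and 486 at 4h, and 577, 568 and 601 at 24h. Its mean at L2H 0h was near its mean at H2L 24h (699 ± 178 and 655 ± 136, n = 3 each). The libraries were less alike: H2L 24h gave 571, 583 and 812, lower than L2H 0h in libraries 1 and 2 and higher in library 3. This transcript was not called in any of the 3 L2H comparisons (adjusted p = 0.0615 at 4h against 0h by limma, log2 change -0.85). The transcript c51276_g1_i1 had 573, 589 and 429 at L2H 0h, 330, 314 and 421 at 4h, and 596, 579 and 535 at 24h. Its 4h libraries lay below those of both other times, without a call.

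The members fall into 129 identifier families by the first part of the identifier, of which 114 hold 1 member, 14 hold 2 and 1 holds 4. Further tested transcripts that share a first part with a member but are no members numbered 179. In group means, 49.7% of these were lower at H2L 4h than at both other times, against 29.1% of all tested transcripts, and 19.6% were at least 1.5-fold lower than both, against 4.43%. Such transcripts may share reads with a member, and the part of shared reads in this figure was not tested.

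The family c48260 holds 4 members and was the largest. Its members showed 2 patterns: c48260_g1_i2 and c48260_g4_i1 were high at L2H 0h and H2L 24h, while c48260_g2_i2 and c48260_g5_i1 were highest at L2H 24h. The transcript c48260_g2_i2 gave 172, 180 and 194 at H2L 0h, 37.5, 29.9 and 71.3 at 4h and 213, 223 and 335 at 24h, and in L2H it gave 225, 243 and 272, then 230, 217 and 265, then 439, 446 and 427 at the same times. The transcript c48260_g5_i1 had means of 107 ± 44.3, 36.1 ± 25.1 and 184 ± 98.6 in H2L and of 144 ± 39.2, 203 ± 28.6 and 279 ± 54.2 in L2H at 0h, 4h and 24h. In all 4 members the third H2L library was the highest at 4h and at 24h.

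The fifth transcript of that family, c48260_g3_i1, is no member, because it was near 0 at H2L 0h. It gave 0.79, 0.11 and 0.96 at H2L 0h, 0.70, 0.12 and 0.48 at 4h and 63.9, 64.7 and 63.7 at 24h, and in L2H 93.8, 96.0 and 31.7 at 0h, 0.71, 1.16 and 38.1 at 4h and 0.80, 0.90 and 2.84 at 24h. The family c50329 also holds such transcripts. Its members c50329_g1_i5 and c50329_g4_i1 kept an H2L 4h mean of 31.5 ± 6.28 and 24.3 ± 8.21, whereas c50329_g3_i1 and c50329_g5_i1 stood at 52.3 ± 20.5 and 119 ± 22.5 at H2L 24h, against 0.533 ± 0.280 and 0.837 ± 0.305 at H2L 4h. These companions were near 0 at both early H2L times, and a further transcript, c50329_g2_i1, was low in every group, with means of 0.687 to 1.73.

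A few members went the other way in L2H at 4h. The transcript c46005_g1_i2 gave 12.1, 13.4 and 48.0 at L2H 0h, 78.0, 75.7 and 39.3 at 4h, and 40.0, 35.4 and 19.2 at 24h. Libraries 1 and 2 were high at 4h while the third was lower there than at 0h, and limma did not call it (a log2 change of 1.57, SE 0.40, adjusted p = 0.0502). The next largest L2H peaks, of c50138_g1_i7 and c49307_g1_i1, were small. The L2H means of c50138_g1_i7 were 362 ± 21.4 at 0h, 395 ± 88.0 at 4h and 312 ± 52.2 at 24h, and those of c49307_g1_i1 were 44.5 ± 11.1, 48.6 ± 13.5 and 38.8 ± 7.15 (SD, n = 3). The libraries of the 3 times overlapped in both.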

How the data were processed

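RNA was sequenced from 18 libraries in 6 groups of 3. The submitters' processing notes name RSEM, Bowtie2 and FastQC without versions. In the 1 table that the authors deposited each value is an abundance signal, scaled for length and depth; whether it is FPKM or TPM is not stated in the sources at hand. Columns were matched to samples by title, and 0 belonged to no sample. Depth is unknown, so no counting interval is given.

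A transcript was tested when 3 or more libraries had 1 or more (34166, all 146 members among them). Limma 3.58.1 in R 4.3.3 was fitted to log2(value + 1) over all 18 libraries, 1 mean per group with a trend, two-sided, with Benjamini-Hochberg adjustment over all transcripts tested; a log2 change understates that of low transcripts. Only the 3 L2H comparisons were tested. The fit was tested on simulated data. Alternatives changed the filter, pseudocount, scaling, threshold, libraries and groups fitted, and added a replicate block. The members, lists and alternatives were chosen with earlier results of these data known.

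Members were named by rule: the 6 largest dips, the 4 most abundant, up to 3 largest called rises and falls per L2H comparison (higher group's mean 10 or more, no overlap), 2 on each side of the ratio of 2, the 2 highest and 2 lowest H2L 24h to 0h ratios, the 2 families with most members, and the 3 largest L2H dips and peaks.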

Additional observations from a re-analysis of the deposited data

Results flagged for a closer look

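In 4 members every H2L library at 4h lay below every H2L library at 0h, while every L2H library at 4h lay above every L2H library at 0h; the difference between the arms was not tested, since H2L values chose the members. The L2H log2 changes were 0.52 for c43438_g1_i1, 0.27 for c47498_g6_i1, 0.17 for c47649_g2_i1 and 0.53 for c49734_g8_i3, and limma called none of the 4 at 4h against 0h (adjusted p = 0.226 to 0.551). The L2H 4h libraries lay wholly above those at 0h in 2.74% of members, against 6.87% of all transcripts tested, so this is rarer than the background. Of the 4, c47649_g2_i1 was called higher at L2H 24h against 0h and against 4h (adjusted p = 0.0201 and 0.0449 by limma). The transcript c49734_g8_i3 gave 3.24, 2.32 and 6.91 at H2L 4h, against 15.96, 14.7 and 21.5 at 0h, and 14.1, 13.2 and 11.5 at L2H 4h, against 7.29, 8.14 and 10.7 at 0h. From 4h to 24h, 0 members had such opposed libraries.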

How the results depend on the processing

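The count of members was 470 with a ratio of at least 1.5 and 48 with at least 3, and 310 and 61 with a minimum mean of 5 and 20. It was 127 to 206 without single H2L libraries, and 89 of 146 members met the rule in all 9 of these. The third libraries alone gave 191, of which 82 were members. Members called between L2H 4h and 0h (main count 2) were 85 in libraries 1 and 2 only, 42 with library 3 of both L2H 0h and L2H 4h left out, 15 with a minimum value of 10, 6 with pseudocount 5 and 1 with no filter. The 85 and the 42 were 58.2% and 28.8% of members. These shares were 51.4% and 29.4% in the 9199 transcripts without the dip, and 25.6% and 14% over all tested. Members called were 0 with the replicate block, with libraries 1 and 2 averaged, with only the groups compared and at an adjusted p under 0.01 (60, 10, 44 and 53 at an unadjusted p under 0.05, limma). Between L2H 24h and 0h (23) they were 106 in libraries 1 and 2 only, 62 with library 3 of both L2H 0h and L2H 4h left out, 14 after quantile normalization, 12 after upper-quartile scaling, 7 with a 2-fold minimum, 2 at an adjusted p under 0.01, and 0 with libraries 1 and 2 averaged or only the groups compared (54 and 90 unadjusted, limma). The 106 and the 62 were 72.6% and 42.5% of members. These shares were 41.3% and 15.7% in the 9199, and 20.2% and 7.98% over all tested. Between L2H 24h and 4h (41) members called were 97 in libraries 1 and 2 only, 27 after upper-quartile scaling, 18 with a 2-fold minimum, 15 at an adjusted p under 0.01, 3 with only the groups compared and 0 with libraries 1 and 2 averaged (64 unadjusted, limma). The 97 were 66.4% of members, against 34.1% of the 9199 and 15.5% of all tested. Leaving out single libraries gave 0 to 33, 1 to 52 and 13 to 54 in the 3 comparisons. The other alternatives, here and above, have no share over all tested beside them, except the averaged libraries. Their counts, and all counts at an unadjusted p, are therefore no result about the members. The cause of the shifts in these counts was not tested. Same-numbered L2H libraries deviated together with r of -0.182 to 0.152, over 0.1 in 1 of 9 pairs, and H2L libraries with r of 0.0726 to 0.259, over 0.1 in 5 of 9. Libraries correlated best with their own number in 12 of 18 L2H and 14 of 18 H2L checks, a hint not seen between L2H 0h and 4h. There, same-numbered libraries 1, 2 and 3 had r of -0.0453, -0.0438 and -0.182. Library 3 of each of these times had r of 0.0986 to 0.12 with libraries 1 and 2 of the other. The labels do not say what the title tags mark, and not every pair passed 0.1, so the numbers were not taken to pair the libraries. The replicate block gave 34 and 46 members called at 24h against 0h and 4h. Of 341 alternatives to the 11 calls of named members 96 lost the call and 0 turned the direction. The depth is unknown, which limits members with low values at H2L 4h.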
